A study of Mus musculus with 12 samples.

Results

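The Fos and Jun genes encode the subunits of activator protein 1 (AP-1), and their RNA was examined in the medial prefrontal cortex (mPFC) of B6 and BALB/c mice kept with or without chronic restraint stress (CRS). The 6 members, Fos, Fosb, Fosl2, Jun, Junb and Jund, were taken by gene name from an expression table that held 55678 gene names, with all table entries of a name summed. All 6 passed the filter on low values, which left 16423 genes for testing. CRS or handling was crossed with strain in this study, where B6 stands for C57BL/6JmsSlc and BALB/c for BALB/cCrSlc, both inbred. Restrained mice spent 6 h a day in a restrainer for 21 days, controls were handled without restraint, and the mice were 9 to 10 weeks old. No transgene or drug is named for any group. Each of the 4 groups had 3 libraries, numbered in the sample titles, and the p-values below measure the spread between these libraries. RNA came from a 1.5 mm tissue punch taken after behavioural testing. A punch is a mixture of cell types. The time between the last restraint or test and tissue collection, and the sex of the mice, are not given in the sources used here.

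AP-1 proteins are basic leucine zipper (bZIP) transcription factors that bind DNA as dimers. Fos proteins pair with Jun proteins, whereas Jun proteins can also pair with each other, so the supply of each subunit bears on which dimers can form. Several of the genes are immediate early genes, transcribed within minutes of synaptic activity through calcium and kinase signals that act on factors such as CREB and SRF already present in the nucleus. Fos RNA is short-lived and is widely used in cortex as a mark of recently active neurons, whereas Jund is transcribed at a steady rate in most cells.

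The stretches of DNA just upstream of Fos, Junb and Jun are shown because Fos and Junb gave the family's lowest p-values for CRS in B6 and Jun is their best known partner gene. Each run is 250 bases long, ends at the base before the transcription start, is written 5′ to 3′ on the gene's own strand and comes from RefSeq on GRCm38.p6. Capitals mark the cyclic AMP response element (CRE) half-site TGACG, the AP-1-like octamer TGACATCA, the TATA box TATAAA and the GC box GGGCGG, searched on both strands, so that a GC box on the other strand reads CCGCCC. The windows are chr12:85473640-85473889 on the plus strand for Fos, chr8:84978749-84978998 on the minus strand for Junb and chr4:95052223-95052472 on the minus strand for Jun.
Fos: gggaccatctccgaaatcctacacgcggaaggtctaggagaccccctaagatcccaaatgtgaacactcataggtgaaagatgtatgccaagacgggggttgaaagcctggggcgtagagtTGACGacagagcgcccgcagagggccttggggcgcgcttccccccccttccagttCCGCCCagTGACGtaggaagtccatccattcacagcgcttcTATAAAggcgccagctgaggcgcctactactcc
Junb: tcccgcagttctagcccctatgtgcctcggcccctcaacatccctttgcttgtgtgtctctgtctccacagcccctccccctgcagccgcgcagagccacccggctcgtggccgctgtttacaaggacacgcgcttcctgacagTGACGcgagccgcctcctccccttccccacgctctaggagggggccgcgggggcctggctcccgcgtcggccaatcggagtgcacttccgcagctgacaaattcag
Jun: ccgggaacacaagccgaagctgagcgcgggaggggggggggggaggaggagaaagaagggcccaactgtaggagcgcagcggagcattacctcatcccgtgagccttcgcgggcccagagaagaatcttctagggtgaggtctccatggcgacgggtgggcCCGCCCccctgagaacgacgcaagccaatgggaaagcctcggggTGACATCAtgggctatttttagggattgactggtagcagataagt

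The Fos window held the half-site TGACG from -129 to -125 and again from -66 to -62, counted back from the start site, with a GC box on the other strand from -74 to -69 and a TATA box from -33 to -28. Junb held 1 half-site, from -106 to -102. Jun held the octamer TGACATCA from -45 to -38 and a GC box on the other strand from -89 to -84. Among 32851 RefSeq promoter windows of the same length, 17.8% held TGACG, 12.4% held TATAAA, 32.7% held GGGCGG and 2.93% held TGACATCA. The full CRE TGACGTCA, which contains the half-site, occurred in 1.55% of windows, the AP-1 site TGANTCA in 6.75% and the CArG box, the element bound by SRF, in 1.47%, and none of these 3 was matched in the windows of Fos, Junb or Jun. These matches describe letters in the reference and are not measured binding sites. Bases further upstream than the windows were not searched, so an unmatched element may still lie there, including a CArG box of Fos. RefSeq windows of the other members are not shown, because the one of Fosl2 lay inside the annotated gene, that of Jund lay 1210 bases from the start annotated in GENCODE, and that of Fosb was cut to 177 bases by the gene itself and held only GC boxes.

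On GRCm38 with the GENCODE M21 annotation, Fos lies at chr12:85473890-85477273 on the plus strand, Fosb at chr7:19302696-19310051 on the minus strand and Fosl2 at chr5:32135801-32157842 on the plus strand. Jun lies at chr4:95049034-95052222 on the minus strand, Junb at chr8:84974484-84978718 on the minus strand and Jund at chr8:70698949-70700616 on the plus strand. All 3 Jun genes overlap a gene on the opposite strand. Jun overlaps Junos, at 0.276 to 1.60 TPM (transcript abundance corrected for length) over the libraries, Jund overlaps Gm11175, at 3.43 to 7.89 TPM, and Junb overlaps Prdx2, a peroxiredoxin gene at 217 to 282 TPM. The library kit marks strand, but the sources used here do not say whether the quantification used it, so reads from Prdx2 within the Junb value cannot be told apart if it did not. The 3 Fos genes overlap no annotated gene.

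Among the libraries, 14805 to 15542 genes reached 1 TPM. TPM is scaled to the same total in each library, so it keeps no sequencing depth. The labels name about 6 Gb per library, and the read count of each library is unknown. All 6 excitatory cortical neuron markers were above 0 in every library, at a summed 561 to 1360 TPM in B6 controls (median 983), 513 to 1000.2 in B6 CRS (median 732), 1016 to 1147 in BALB/c controls and 1007 to 1178 in BALB/c CRS. Inhibitory neuron markers (3 of 3 genes above 0) summed to 214 to 331 TPM in B6 controls (median 235), 285 to 499 in B6 CRS (median 383), 172 to 205 in BALB/c controls and 159 to 273 in BALB/c CRS. Markers of the striatum, which lies beneath the mPFC, were also above 0 in all libraries (6 of 6 genes). Their sum was 141 to 1456 TPM in B6 controls, 447 to 1142 in B6 CRS, 65.0 to 221 in BALB/c controls and 80.7 to 103 in BALB/c CRS. Myelin markers (5 of 5 genes above 0) summed to 2258 to 8773 TPM in B6 controls, 2482 to 7113 in B6 CRS, 425 to 2795 in BALB/c controls and 475 to 1304 in BALB/c CRS. BALB/c CRS library 12 stood apart: ribosomal RNA took 3.97% of its TPM against 0.031% to 0.169% in the other 11 libraries, and 71.9% of tested genes had their group's lowest TPM in it. Member differences that involve it are also given without it.

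TPM, being per length, allows the members to be compared with each other. Jund was the most abundant member at 112 to 144 TPM over the 12 libraries, and its mean lay above that of 93.8% of tested genes. Junb followed at 41.1 to 133 TPM, Fos ranged from 7.53 to 60.8 TPM and Jun from 19.0 to 39.7 TPM. Fosb, at 5.73 to 20.9 TPM, and Fosl2, at 5.77 to 14.9 TPM, were the least abundant.

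The order of variability was different. The coefficient of variation over all 12 libraries was 53.9% for Fos, 40.0% for Junb, 36.4% for Fosb, 31.3% for Fosl2, 19.6% for Jun and 7.54% for Jund. Fos thus spanned an 8.07-fold range and Jund a 1.28-fold range. The value of Jund moved with the scaling, to 4.10% after median-of-ratios scaling and 4.50% after rescaling without mitochondrial, Bc1 and ribosomal RNA, while Fos was at 52.9% and 53.5%. Within groups, the SD of Fos on the log2(TPM + 1) scale was 0.64, above that of 95.8% of tested genes, whereas the SD of Jund was 0.12, above that of 8.23%. The within-group SDs of Fosb, Junb and Fosl2 also lay above those of at least 90.5% of tested genes, and Jun lay above 74.6%.

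**Figure D1:**
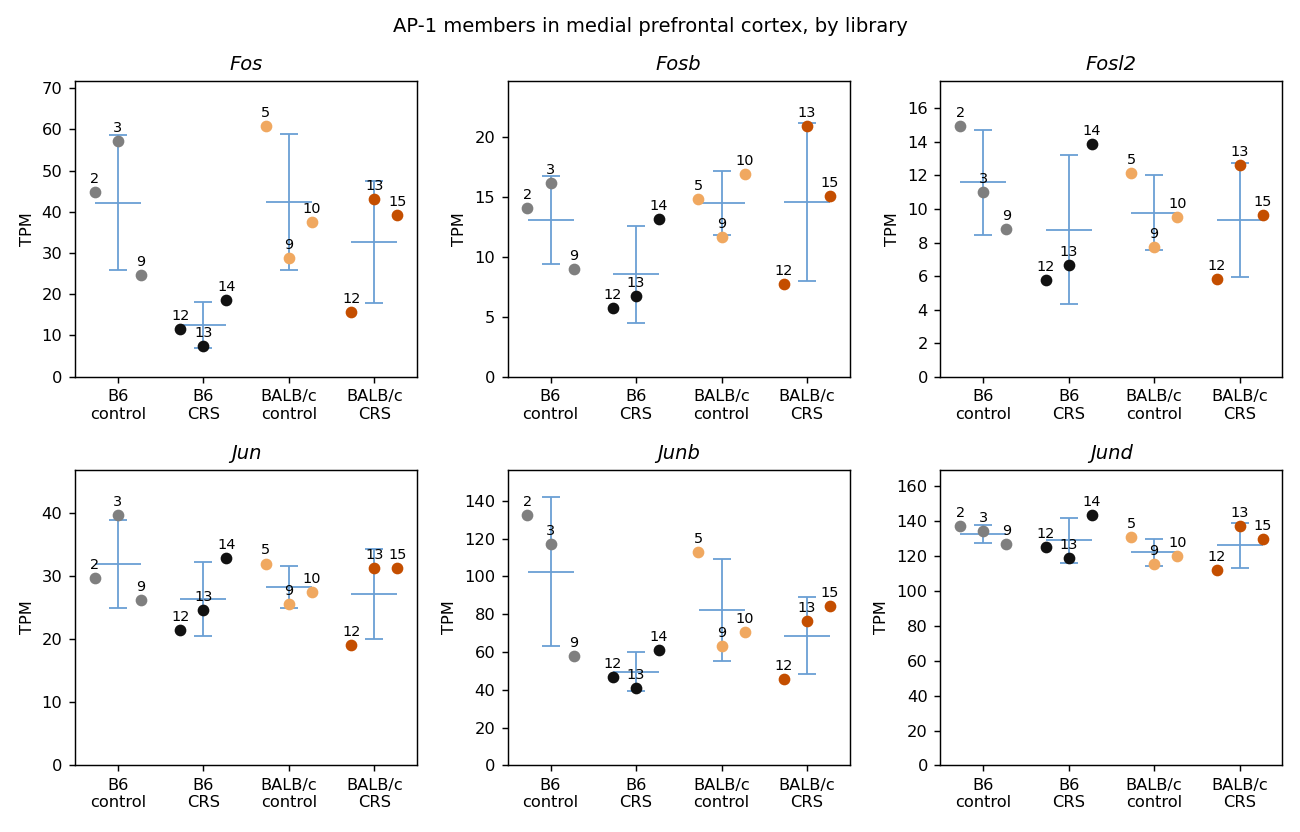
TPM of the 6 AP-1 members (y axis, linear, from 0) by group (x axis). Points are single libraries with their numbers, long bars are group means and whiskers are 1 SD (n = 3). Only Fos in B6 has a CRS group (7.53 to 18.5 TPM) wholly below its control group (24.7 to 57.2 TPM), and Jund is nearly level.

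Fos encodes the founding member of the Fos proteins, the partner in the classical Fos-Jun dimer. In B6 controls its RNA was at 44.9 TPM in library 2, 57.2 in library 3 and 24.7 in library 9, and in B6 CRS it was at 11.5 in library 12, 7.53 in library 13 and 18.5 in library 14. The highest CRS library thus lay below the lowest control. BALB/c controls gave 60.8 TPM in library 5, 28.9 in library 9 and 37.5 in library 10, and BALB/c CRS gave 15.6 in library 12, 43.1 in library 13 and 39.3 in library 15. In BALB/c the groups overlapped, with library 12 below every control and the other two CRS libraries inside the control range. The group means were 42.3 ± 16.4 TPM in B6 controls, 12.5 ± 5.56 in B6 CRS, 42.4 ± 16.5 in BALB/c controls and 32.7 ± 14.9 in BALB/c CRS (SD, n = 3 each). The table split Fos over 4 entries, of which the largest carried 76.6% to 94.3% of its TPM.

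Fosb encodes FosB and, through alternative splicing, the truncated and long-lived protein ΔFosB, which accumulates in neurons with repeated stimulation. Its TPM was 14.1, 16.2 and 8.99 in B6 controls 2, 3 and 9 and 5.73, 6.73 and 13.2 in B6 CRS libraries 12, 13 and 14. Libraries 12 and 13 lay below every control, and library 14 lay inside the control range. In BALB/c it was 14.9, 11.7 and 16.9 TPM in controls 5, 9 and 10 and 7.72, 20.9 and 15.1 TPM in CRS libraries 12, 13 and 15. The CRS libraries there held both the lowest and the highest value. Means were 13.1 ± 3.69, 8.54 ± 4.03, 14.5 ± 2.65 and 14.6 ± 6.62 TPM (SD, n = 3) in B6 controls, B6 CRS, BALB/c controls and BALB/c CRS. Of 7 table entries for Fosb 6 were above 0, with 66.0% to 86.8% of the TPM in the largest, but entries carry only the gene name, so the 2 protein forms could not be separated.

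Fosl2 encodes Fra-2, a Fos protein without the strong activation domain of Fos. It stood at 14.9, 11.03 and 8.79 TPM in B6 controls 2, 3 and 9 and at 5.77, 6.66 and 13.9 TPM in B6 CRS libraries 12, 13 and 14. As for Fosb, library 14 reached into the control range and the other two CRS libraries lay below it. The values were 12.1, 7.70 and 9.50 TPM in BALB/c controls 5, 9 and 10 and 5.81, 12.6 and 9.66 TPM in BALB/c CRS libraries 12, 13 and 15, so that the CRS libraries again spanned the controls. Means were 11.6 ± 3.11, 8.77 ± 4.44, 9.78 ± 2.23 and 9.35 ± 3.40 TPM (SD, n = 3), in the same group order.

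Jun encodes c-Jun, the main target of the JNK kinases. B6 controls 2, 3 and 9 gave 29.7, 39.7 and 26.3 TPM, and B6 CRS libraries 12, 13 and 14 gave 21.5, 24.7 and 32.9 TPM. Library 14 was again the exception among CRS libraries, above 2 of the 3 controls. BALB/c controls 5, 9 and 10 gave 32.0, 25.5 and 27.5 TPM, and BALB/c CRS libraries 12, 13 and 15 gave 19.0, 31.3 and 31.3 TPM. Only library 12 lay below the BALB/c controls. Means were 31.9 ± 6.998, 26.4 ± 5.88, 28.4 ± 3.33 and 27.2 ± 7.09 TPM (SD, n = 3), in the same order.

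Junb encodes JunB, an immediate early Jun protein that is a weaker activator than c-Jun on many promoters. In B6 controls it was at 133, 117 and 57.7 TPM in libraries 2, 3 and 9, and in B6 CRS at 46.9, 41.1 and 61.1 TPM in libraries 12, 13 and 14. The groups overlapped through control 9 and CRS library 14 alone. In BALB/c, controls 5, 9 and 10 were at 113, 63.2 and 70.5 TPM, and CRS libraries 12, 13 and 15 were at 45.5, 76.4 and 84.1 TPM. Library 12 was the only CRS library below those controls. Means were 102.5 ± 39.6, 49.7 ± 10.3, 82.3 ± 26.9 and 68.7 ± 20.4 TPM (SD, n = 3), in the same order.

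Jund encodes JunD, the constitutive Jun protein. Its TPM was 137, 134 and 127 in B6 controls 2, 3 and 9, 125, 119 and 144 in B6 CRS libraries 12, 13 and 14, 131, 116 and 120 in BALB/c controls 5, 9 and 10 and 112, 137 and 130 in BALB/c CRS libraries 12, 13 and 15. All 4 groups overlapped. Means were 132.8 ± 5.10, 129.2 ± 12.9, 122.3 ± 7.71 and 126.2 ± 12.9 TPM (SD, n = 3), in the same order.

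Ordered by group mean, Fos ran from BALB/c controls over B6 controls and BALB/c CRS to B6 CRS. For all 6 members, every pair of neighbours in the order of group means had overlapping libraries. B6 CRS had the lowest mean of the 4 groups for Fos, Fosb, Fosl2, Jun and Junb, whereas for Jund BALB/c controls were lowest.

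The first comparison asked how CRS libraries differed from controls in B6. All 6 members had lower log2(TPM + 1) in B6 CRS, and 49.7% of all tested genes lay below 0. No member was called at an adjusted p under 0.05 by limma with Benjamini-Hochberg adjustment over all genes, and neither was any other gene (0% of 16423). At an unadjusted p under 0.05, 2 of 6 members were lower, Fos and Junb, against 1.99% of tested genes. Fos was lower by the largest amount, with a log2 difference of -1.68 (SE 0.43, 95% interval -2.62 to -0.74, limma adjusted p = 1), and all 3 CRS libraries lay below all 3 controls. It was the only member whose B6 groups did not overlap, and 3.7% of tested genes separated in this direction. In a bulk sample, fewer cells that carry a transcript and less of it per cell cannot be told apart.

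Junb followed with -0.96 (SE 0.33, 95% interval -1.68 to -0.25, limma adjusted p = 1). Its CRS libraries 12 and 13 lay below all 3 controls. Fosb differed by -0.60 (SE 0.35, 95% interval -1.36 to 0.15), Fosl2 by -0.43 (SE 0.32, 95% interval -1.13 to 0.27) and Jun by -0.27 (SE 0.22, 95% interval -0.74 to 0.21). Jund differed by -0.04 (SE 0.11, 95% interval -0.27 to 0.19). Without B6 CRS library 14, 4 of 6 members had an unadjusted p under 0.05, with differences of -1.99 for Fos, -1.12 for Junb, -0.93 for Fosb and -0.78 for Fosl2, and Jun differed by -0.43, none of them called. The count was 3 without B6 control 9 (Fosb at -0.83), 1 without B6 control 2, and 2 without each of the other libraries. Library 14 had the highest value of its group in all 6 members, so leaving it out lowers each member's B6 CRS mean. Shares of all tested genes at this threshold are not given here for these counts. The median over the members was -0.52 on the log2 scale, and the median over all tested genes was 0. With the striatal marker level as a covariate, the B6 difference was -1.72 for Fos and -1.15 for Junb. Excitatory neuron markers had their lowest median and inhibitory neuron markers their highest in B6 CRS, and their part in the B6 differences was not tested.

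BALB/c gave smaller differences. No member was called by limma, 1 of 16423 tested genes was (0.00609%), and no member had an unadjusted p under 0.05, against 3.03% of tested genes. No member had groups that did not overlap, against 7.39%, and 5 of 6 differences were below 0, against 37.4%. Fos differed by -0.42 (SE 0.43, 95% interval -1.36 to 0.52, limma adjusted p = 1) and Junb by -0.26 (SE 0.33, 95% interval -0.97 to 0.45). For Jun the difference was -0.09 (SE 0.22), for Fosb -0.08 (SE 0.35), for Fosl2 -0.09 (SE 0.32) and for Jund 0.04 (SE 0.11). The median over the members was -0.09, against 0.05 over all genes. These signs depended on single libraries. Without BALB/c CRS library 12 Fos differed by 0.03, Junb by 0.01, Fosb by 0.29, Fosl2 by 0.18 and Jun by 0.14, none of them called, and Jund by 0.13. Without BALB/c control 5, Fosl2 differed by 0.06 and Jun by 0.0022, with Junb at -0.0071, and without BALB/c control 10 Fosb differed by 0.04. Jund was at -0.02 without BALB/c CRS library 13.

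**Figure D2:**
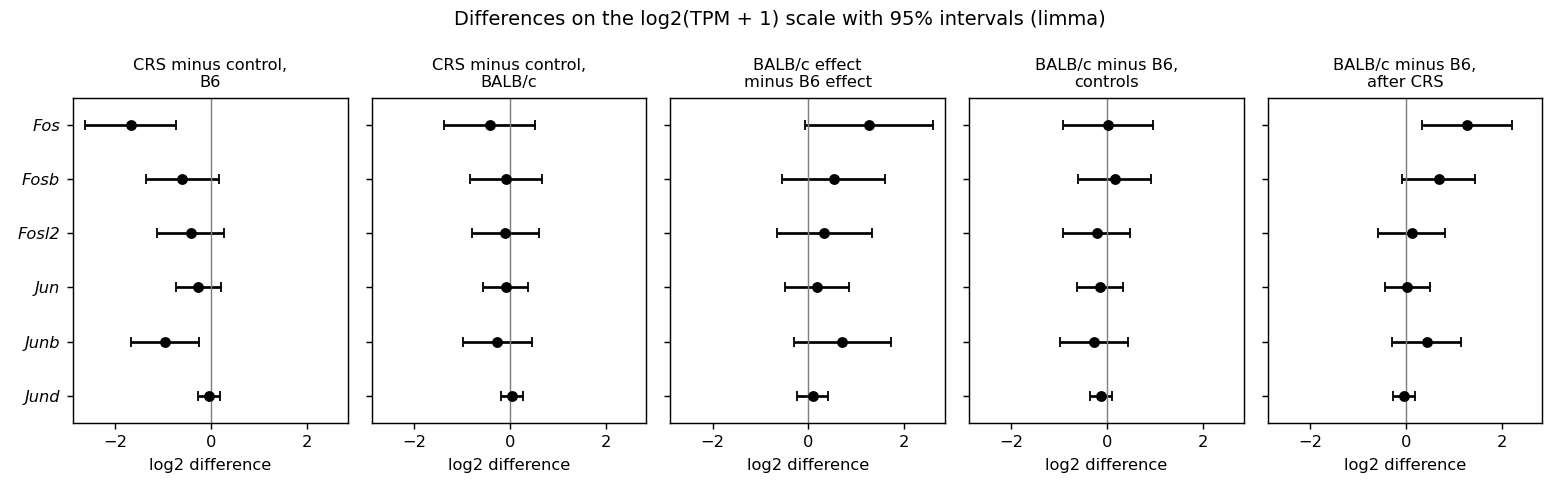
Log2 differences of the 6 members (y axis) in 5 of the comparisons (a panel each, x axis, log2(TPM + 1) scale), as points with 95% intervals from limma. The interval of Fos lies below 0 in B6 (-2.62 to -0.74) and crosses 0 in BALB/c (-1.36 to 0.52), and the intervals of Jund are the narrowest.

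Averaged over the strains, Fos differed by -1.05 (SE 0.31, limma adjusted p = 0.9458) and Junb by -0.61 (SE 0.23, limma adjusted p = 0.9458). These were the 2 of 6 members with an unadjusted p under 0.05, against 1.55% of tested genes in the same direction. No member was called, and 1 tested gene was (0.00609%). Fosb averaged -0.34, Fosl2 -0.26 and Jun -0.18, with intervals that included 0, and Jund averaged -0.0006. The average without BALB/c CRS library 12 was -0.83 for Fos, -0.48 for Junb, -0.16 for Fosb, -0.12 for Fosl2, -0.06 for Jun and 0.04 for Jund.

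Whether the CRS difference itself differed between strains was tested as an interaction. The BALB/c difference minus the B6 difference was 1.26 for Fos (SE 0.61, 95% interval -0.07 to 2.59, limma adjusted p = 0.9999). For Junb it was 0.71 (SE 0.46, 95% interval -0.30 to 1.71), for Fosb 0.53 (SE 0.49), for Fosl2 0.33 (SE 0.45), for Jun 0.18 (SE 0.31) and for Jund 0.09 (SE 0.15). No member was called, nor was any tested gene (0%), and 0 of 6 members had an unadjusted p under 0.05 in limma, against 2.7% of tested genes. Without BALB/c CRS library 12 the interaction for Fos was 1.71 (SE 0.55, limma adjusted p = 0.9339). The other interactions were then 0.97 for Junb, 0.90 for Fosb, 0.61 for Fosl2, 0.41 for Jun and 0.17 for Jund, and Fos was the only member with an unadjusted p under 0.05. The number of such members was 2 without B6 control 9, 1 without B6 CRS library 14 or BALB/c control 5, and 0 without each of the other libraries. Shares of all tested genes are not given here for these counts. Over all 12 libraries the interval of the Fos interaction included 0.

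The strains were then compared within each treatment. In controls, no member was called by limma, against 4.73% of tested genes, and none had an unadjusted p under 0.05, against 18.7%. BALB/c minus B6 was 0.02 for Fos (SE 0.43, 95% interval -0.92 to 0.96), 0.16 for Fosb, -0.21 for Fosl2, -0.15 for Jun, -0.27 for Junb and -0.12 for Jund. All 6 members overlapped between the strains, whereas 22.9% of tested genes did not. The median over all tested genes was itself -0.10 in this comparison. The control means of Fos, 42.3 and 42.4 TPM, lay closer than the libraries within either strain.

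After CRS, Fos was higher in BALB/c by 1.28 (SE 0.43, 95% interval 0.33 to 2.22, limma adjusted p = 0.09365), and was the only member with an unadjusted p under 0.05, against 7.14% of tested genes in that direction. BALB/c CRS libraries 13 and 15 lay above all 3 B6 CRS libraries, and library 12 lay among them. No member was called, against 7.7% of tested genes, and none had separate groups, against 29.3%. Without BALB/c CRS library 12 the difference was 1.72 and Fos was called (limma adjusted p = 0.04587), as were 604 of 16316 tested genes. Fosb differed by 0.69 (SE 0.35, limma adjusted p = 0.2578) and Junb by 0.43 (SE 0.33, limma adjusted p = 0.4677). The Junb difference was 0.92 with the striatal and 0.80 with the myelin marker level as a covariate. Junb was not called in any setting, with a lowest limma adjusted p of 0.2814. Over the settings that kept all libraries, the marker covariates among them, Fos ranged from 1.28 to 1.50 and was not called. Fosl2, at 0.12, Jun, at 0.03, and Jund, at -0.03, differed by less than their standard errors. Without BALB/c CRS library 12 the difference was 1.06 for Fosb, 0.70 for Junb, 0.39 for Fosl2, 0.26 for Jun and 0.05 for Jund, none of them called, and Fos and Fosb were the 2 members with an unadjusted p under 0.05. The number was 0 without B6 CRS library 13 or BALB/c CRS library 13. Shares of all tested genes at that threshold are not given here for these counts. The CRS comparison in each strain and the comparison after CRS use the same libraries and are not independent of each other.

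Summed over the 6 genes, AP-1 transcripts made up 373, 376 and 254 TPM in B6 controls 2, 3 and 9 and 216, 206 and 283 TPM in B6 CRS libraries 12, 13 and 14. The groups overlapped through control 9 and CRS library 14. In BALB/c the sum was 364, 253 and 282 TPM in controls 5, 9 and 10 and 206, 321 and 309 TPM in CRS libraries 12, 13 and 15. Group means were 334.2 ± 69.8, 235.0 ± 42.0, 299.5 ± 57.5 and 278.7 ± 63.6 TPM (SD, n = 3) in B6 controls, B6 CRS, BALB/c controls and BALB/c CRS.

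The makeup of the sum restates the same levels as shares and was not tested. Fos made up 12.3% ± 2.76 of the sum in B6 controls, 5.17% ± 1.44 in B6 CRS, 13.8% ± 2.68 in BALB/c controls and 11.2% ± 3.18 in BALB/c CRS (SD, n = 3). Jund made up 40.9% ± 8.05, 55.5% ± 4.08, 41.5% ± 5.02 and 46.3% ± 7.03 in that order. The Fos genes together were at 66.9 ± 21.8 TPM in B6 controls and 29.8 ± 13.7 in B6 CRS, and the Jun genes together at 267.3 ± 48.8 and 205.2 ± 28.4 TPM. Jun transcripts thus outnumbered Fos transcripts in every library. These are RNA levels, and no protein or dimer was measured.

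**Figure D3:**
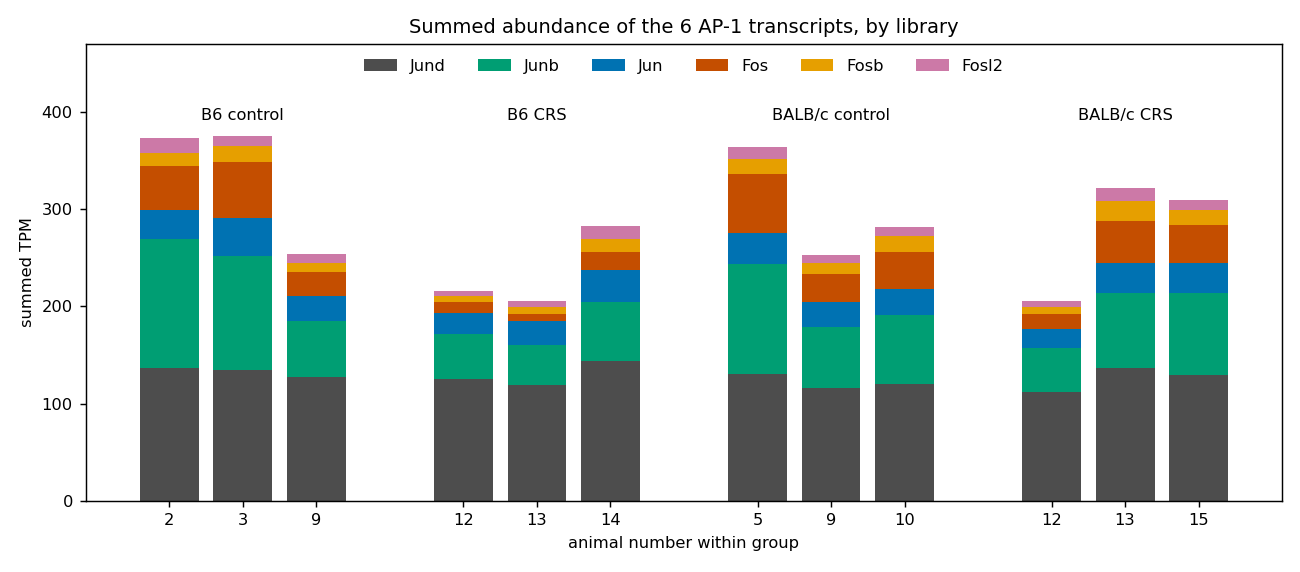
Summed TPM of the 6 members (y axis, from 0) in each of the 12 libraries (x axis, library number within group), as stacked bars with 1 colour per member. Jund is about level over the libraries, while the parts of Fos and Junb differ, and the lowest sums are those of B6 CRS library 13 and BALB/c CRS library 12, both at 206 TPM.

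A ratio of 2 genes within a library does not depend on how the library was scaled. The ratio of Fos to Jund was 0.328, 0.426 and 0.194 in B6 controls 2, 3 and 9 and 0.0918, 0.0633 and 0.129 in B6 CRS libraries 12, 13 and 14. In BALB/c it was 0.465, 0.250 and 0.312 in controls 5, 9 and 10 and 0.139, 0.314 and 0.303 in CRS libraries 12, 13 and 15. As in TPM, the B6 groups were separate and the BALB/c groups overlapped. For Junb the ratio was 0.968, 0.874 and 0.454 in B6 controls and 0.375, 0.345 and 0.425 in B6 CRS, in the same library order. On this scale the B6 groups of Junb were separate too, and 2.03% of tested genes separated downward as a ratio to Jund. They overlapped in TPM, after median-of-ratios scaling and after rescaling without mitochondrial, Bc1 and ribosomal RNA, whereas Fos was separate on all of these scales. In BALB/c it was 0.865, 0.546 and 0.586 in controls and 0.407, 0.558 and 0.649 in CRS, and these overlapped.

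The members varied together from library to library. Over the 12 libraries, Pearson's r on the log2 scale ranged from 0.443 (Fos with Jund) to 0.908 (Fos with Junb) over the 15 pairs, with a median of 0.771. Spearman's rho ranged from 0.531 to 0.951, with a median of 0.734. With the group means removed, r ranged from 0.736 to 0.941, with a median of 0.855, so the likeness also held within groups. These are descriptions of 12 libraries in TPM, whose scaling all members of a library share and which moved the variation of Jund by over 1.5 times.

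The shared pattern came down to particular libraries. B6 control 9 had the lowest value of its group in all 6 members, as did BALB/c control 9 and BALB/c CRS library 12, and B6 CRS library 14 had the highest of its group in all 6. Of all tested genes, 31.4% were lowest of the group in B6 control 9, 47.1% in BALB/c control 9 and 71.9% in BALB/c CRS library 12, and 51.6% were highest of the group in B6 CRS library 14. After median-of-ratios scaling, which lowers the weight of a few abundant transcripts, the 2 control libraries and B6 CRS library 14 kept all 6 members, against 35.4% to 37.9% of genes. BALB/c CRS library 12 then kept 5 of 6, against 39.7% of genes.

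**Figure D4:**
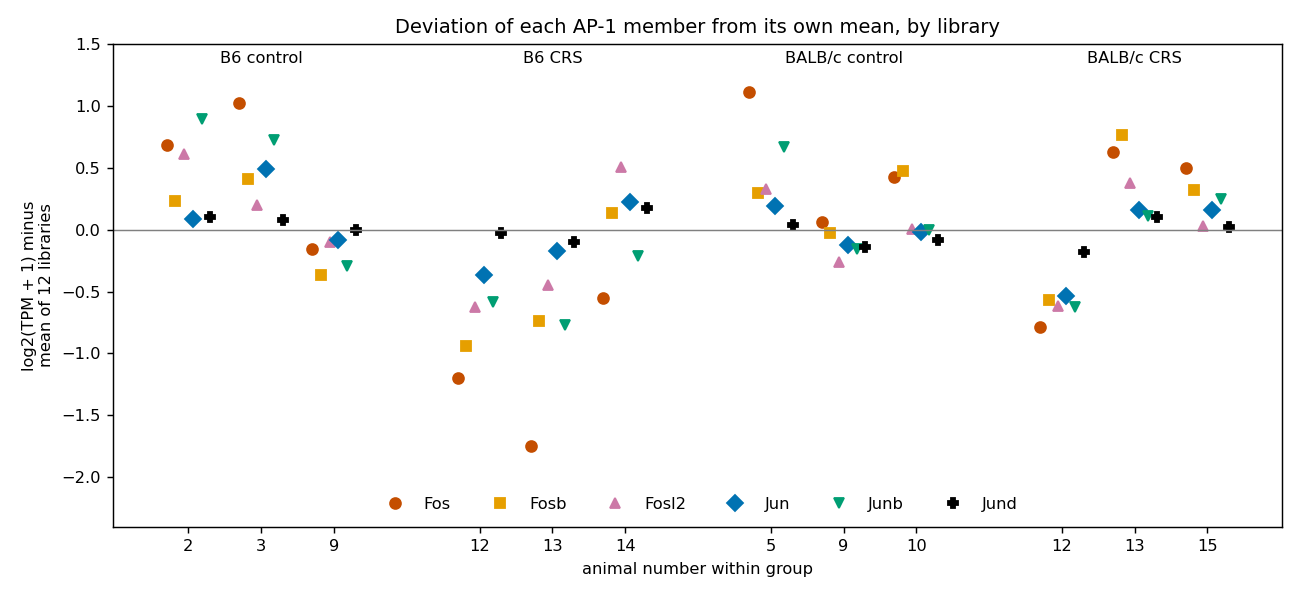
Deviation of each member from its own mean over the 12 libraries (y axis, log2(TPM + 1)) in each library (x axis, library number within group), 1 symbol per member. The members sit on the same side of their means in most libraries, and in B6 CRS library 14 Fos and Junb stay below 0 while the other members are above it.

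By the rule of the highest Pearson's r over the 12 libraries among 13635 genes, Fos was most like Dusp1 (r 0.97), Btg2 (0.94) and Ccn1 (0.93). Dusp1, a phosphatase of MAP kinases, ran from 18.3 to 63.5 TPM. Junb was most like Egr2 (0.94), Nr4a1 (0.93) and Egr4 (0.91), all of which encode immediate early transcription factors. Fosb was most like Urb2 (0.97), Klf2 (0.93) and Rac2 (0.88), and Fosl2 was most like Aggf1 (0.92), Slc25a25 (0.90) and Slc39a3 (0.90). The genes nearest to Jun were Prdm2 (0.94), Sec24c (0.92) and Khnyn (0.89), and those nearest to Jund were Fbxw8 (0.96), Ctr9 (0.95) and Stk16 (0.94). The order depended in part on the group means. With these removed, Egr2, Nr4a1 and Egr4 ranked 21, 90 and 201 for Junb, at r 0.93, 0.89 and 0.85. Dusp1, Btg2 and Ccn1 then ranked 18, 17 and 61 for Fos, and Prdm2 ranked 1 for Jun. Each value is taken from many correlations over 12 libraries and carries no test.

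Other immediate early genes were examined as a list of 17, all of which were tested. In B6, none was called by limma, 13 of 17 were lower at an unadjusted p under 0.05, against 1.99% of tested genes, and all 17 differences were below 0, against 49.7%, with a median of -0.88. Without each library in turn, 10 to 15 of 17 were lower at an unadjusted p under 0.05, with the shares of all tested genes not given here. Egr1, a zinc finger transcription factor, was at 160 ± 21.6 TPM in controls and 81.9 ± 12.3 in CRS (SD, n = 3), a log2 difference of -0.96 (SE 0.15, limma adjusted p = 0.2242). Arc, which encodes a synaptic scaffold protein, differed by -1.47 (SE 0.34), Egr2 by -1.45 (SE 0.40) and Dusp1 by -1.01 (SE 0.28). On the log2(TPM + 1) scale, the Fos difference in B6 of -1.68 (SE 0.43) was larger than that of any gene in this list. The gaps to Arc and Egr2 were smaller than that SE. This scale understates the change of low genes, and the Egr2 means in B6 were 10.6 TPM in controls and 2.84 in CRS.

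In BALB/c, none of the 17 was called, 3 were lower at an unadjusted p under 0.05 (Egr1, Ier5 and Homer1) against 0.627% of tested genes, and 13 were below 0, against 37.4%, with a median of -0.25. Without BALB/c CRS library 12, 2 were lower at an unadjusted p under 0.05, against 0.435% of genes, and 10 were below 0, with a median of -0.12 against 0.12 over all genes. Egr1 differed there by -0.62 (SE 0.15, limma adjusted p = 1). No gene of the list was called in the interaction, where 3 of 17 were higher at an unadjusted p under 0.05 (Gadd45b, Npas4 and Arc), against 1.71% of tested genes. The count was 7 of 17 without BALB/c CRS library 12, against 3.59%. After CRS 1 of 17 was called, against 7.7% of tested genes, and 2 were without BALB/c CRS library 12, against 3.7%. Npas4, a neuronal activity-dependent factor, was the 1 called with all libraries, higher in BALB/c, at 6.69 ± 0.594 TPM in B6 and 18.4 ± 5.33 in BALB/c (log2 difference 1.30, SE 0.28, limma adjusted p = 0.01707). That call ended, with the difference between 1.15 and 1.30, without B6 CRS library 12 or 13 or BALB/c CRS library 13 or 15, and with either marker covariate (1.37 striatal, 1.46 myelin). In controls Gadd45b was called lower in BALB/c (-0.65, SE 0.15, limma adjusted p = 0.0335), a call that ended without B6 control 2 (-0.61) or 3 (-0.63), BALB/c control 9 (-0.58) or 10 (-0.57) or BALB/c CRS library 15 (-0.65), and with either covariate (-0.67 striatal, -0.63 myelin).

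The bZIP relatives and partners of AP-1 numbered 14, of which 11 were tested. Fosl1, which encodes Fra-1, did not pass the filter, at no more than 0.277 TPM in any library, nor did Batf or Batf2. In B6 none of the 11 was called or had an unadjusted p under 0.05 in limma, and all 11 lay below 0, against 49.7% of tested genes, with a median of -0.23. The lowest p-values were those of Batf3 (-0.37), Atf2 (-0.18), Atf4 (-0.21) and Atf7 (-0.27). In BALB/c 7 lay above 0 and 4 below, against 37.4% of tested genes below, with a median of 0.01. Batf3 was called lower in BALB/c controls than in B6 controls, at 0.251 ± 0.123 against 1.59 ± 0.429 TPM (log2 difference -1.04, SE 0.20, limma adjusted p = 0.008565), a call that ended with the myelin covariate (-0.98) and stood without each single library. Batf3 lies near the floor, and its means in BALB/c controls (0.251 TPM) and BALB/c CRS (0.511 TPM) were below the 1 TPM of the filter.

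Of the 29 kinases and transcription factors upstream of AP-1, all were tested and none was called in any comparison by limma. The median CRS difference was -0.06 in B6 and 0.02 in BALB/c. Crem, which encodes a CREB relative, was the only one with an unadjusted p under 0.05 in B6 (1 of 29, against 1.99% of tested genes in that direction), at -0.26 (SE 0.11). Its mean was 25.7 TPM in B6 controls and 21.3 in B6 CRS. Mapk3, which encodes the kinase ERK1, had the lowest p in BALB/c, at 0.32 (SE 0.15).

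Of 16 genes described as AP-1 targets, 12 were tested, and Mmp9, Mmp3, Timp1 and Plaur did not pass the filter. In B6, CRS minus control had a median of 0.05 over the 12, with none called by limma. Pdyn, which encodes the dynorphin precursor (1.01, SE 0.26), and Scg2, which encodes a secretogranin (0.49, SE 0.15), were the 2 with an unadjusted p under 0.05, and both differences were positive, as for 2.84% of tested genes at that threshold. BALB/c gave a median of 0.01 with none called and none at an unadjusted p under 0.05. After CRS, 3 of 12 were called, all lower in BALB/c, against 7.7% of tested genes called in either direction. Pdyn differed by -1.33 (SE 0.26, limma adjusted p = 0.01074), Scg2 by -0.66 (SE 0.15, limma adjusted p = 0.02235) and Penk, which encodes the enkephalin precursor, by -3.90 (SE 0.90, limma adjusted p = 0.02333). Pdyn and Penk are abundant in striatal neurons, and the summed striatal markers were 447 to 1142 TPM in B6 CRS and 80.7 to 103 in BALB/c CRS. With the striatal marker level as a covariate the difference was -0.13 for Penk, -0.61 for Pdyn and -0.56 for Scg2, and with the myelin marker level -1.59, -1.19 and -0.60, none of them called. The calls also ended without single libraries. Without B6 CRS library 12 the difference was -1.23 for Pdyn, -0.67 for Scg2 and -3.56 for Penk. The Scg2 call ended without B6 CRS library 14 (-0.50) or BALB/c CRS library 12 (-0.57), and the Penk call without B6 CRS library 13 (-3.85), BALB/c CRS library 12 (-3.81) or BALB/c CRS library 13 (-3.77).

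**Figure D5:**
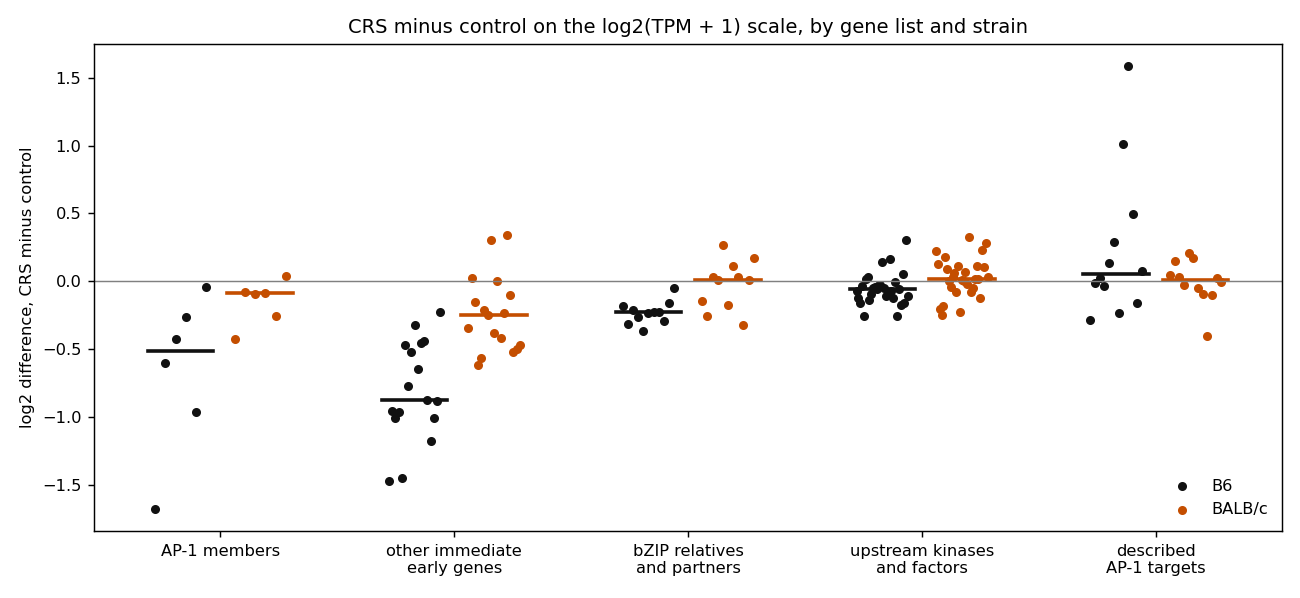
CRS minus control on the log2(TPM + 1) scale (y axis) for each tested gene of 5 lists (x axis), in B6 (black) and BALB/c (orange), with bars at the list medians. The medians of the AP-1 members and of the other immediate early genes are -0.52 and -0.88 in B6 and -0.09 and -0.25 in BALB/c, while those of the other lists lie between -0.23 and 0.05.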

How the data were processed

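RNA sequencing was done on 12 libraries from 12 numbered samples in 4 groups of 3. Per the labels' protocols, TruSeq Stranded mRNA libraries were read as paired 150 bp reads to about 6 Gb each. The submitters' processing notes name cutadapt 2.9, Salmon (version not given in the sources used here) and GRCm38, and the annotation and strand setting are not given in the sources used here. The authors deposited TPM, 1 column per library and 147902 entries that carry gene names only. The unit was read from column totals of 1000000. TPM was summed by gene name. Genes that reached 1 TPM in 3 or more of the libraries entered the tests, on log2(TPM + 1) with limma 3.58.1 in R 4.3.3 (4 group means, 8 residual degrees of freedom, eBayes with trend, Benjamini-Hochberg over all genes tested, called under 0.05). A log2(TPM + 1) difference understates the change of low genes.

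The members and gene lists were chosen with earlier results of these data known. All 6 members are named in every comparison, and each other list gives at most its 4 genes with the lowest p in a comparison and every called gene. The code was tested on simulated data. Alternatives were a pseudocount of 0.1, no filter, a mean of at least 5 TPM, 2 other scalings, a fit of the 2 groups compared, a replicate block, 2 marker covariates and leaving out each library. Counts per list without each library, and group separation on other scales, were added after seeing the data. Promoters came from the RefSeq table (6 of 6 members matched) and gene positions from GENCODE M21.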

Additional observations from a re-analysis of the deposited data

How the results depend on the processing

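Over 744 recomputed member differences (36 member and comparison pairs, 21 settings), 700 kept direction and side of the threshold, 1 passed it (Fos after CRS, as above, so that members called there ranged from 0 to 1 when leaving out each library) and 43 changed sign. Fos in B6 ranged from -1.76 to -1.47 over the other settings and from -2.02 to -1.39 when leaving out each library, and Junb from -1.15 to -0.91 and from -1.33 to -0.74. In B6, Fosb ranged from -0.66 to -0.39 and from -0.93 to -0.39, Fosl2 from -0.47 to -0.19 and from -0.78 to -0.21, and Jun from -0.28 to -0.08 and from -0.43 to -0.10, in the same order, with the replicate block nearest to 0 among the settings. No filter on low values ended the calls of Gadd45b (-0.65) and Penk (-3.90), and the fit of 2 groups those of Batf3 (-1.04) and Gadd45b (-0.65). The sign changes were in differences whose intervals included 0. Under median-of-ratios scaling Jund was -0.018 in BALB/c, 0.0055 between control strains and 0.0315 after CRS, where rescaling without mitochondrial, Bc1 and ribosomal RNA gave 0.0219. With the striatal covariate Jund averaged 0.001 and Jun after CRS was -0.0853. With the myelin covariate Jund averaged 0.0009 and Junb in controls was 0.0713. The causes were not tested.

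The replicate numbers 9, 12 and 13 occur in both strains but belong to different mice. Over all tested genes, deviations of same-numbered libraries correlated at -0.242, -0.029 and -0.036. B6 control 9 and BALB/c control 9 were both lowest of their group in all 6 members. These values cannot show whether same-numbered libraries were handled together, and that was not tested. A replicate block called no member. With this block Jund was 0.0216 in B6, Fosb 0.1366, Fosl2 0.1476 and Jun 0.0968 in BALB/c, and Jun 0.0062 and Jund 0.0645 on average. The block ended the calls of Gadd45b (-0.65) and Penk (-3.90).

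Leaving out each library in turn gave sign changes in these ranges. In B6, Jund ran from -0.12 to 0.0132. In BALB/c, Fos ran from -0.68 to 0.0254, Fosb from -0.37 to 0.29, Fosl2 from -0.32 to 0.18, Jun from -0.20 to 0.14, Junb from -0.43 to 0.0099 and Jund from -0.0194 to 0.13. On average, Jund ran from -0.0397 to 0.041. In controls, Fos ran from -0.32 to 0.27, Fosb from -0.0689 to 0.32 and Jun from -0.27 to 0.0149. After CRS, Fosl2 ran from -0.11 to 0.47, Jun from -0.10 to 0.26 and Jund from -0.096 to 0.0489. Called genes overall ranged from 289 to 759 against 777 between control strains (428 to 1389 when leaving out each library), from 243 to 1438 against 1264 after CRS (539 to 1852), from 0 to 7 against 0 in B6 and from 0 to 2 against 1 in BALB/c.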

Other observations

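Marker levels were correlated with the members as the mean log2(TPM + 1) of each marker list. Among markers of the cell types a punch could hold, the microglial markers had the highest correlation with a member, at r 0.78 with Fosl2 over the 12 libraries. For Fos, r was 0.46 with excitatory cortical neuron markers, -0.44 with striatal markers and 0.42 with microglial markers. In TPM, the microglial markers summed to 98.6 to 126.7. Blood markers summed to 4.34 to 110.5 TPM and choroid plexus markers to 8.31 to 56.8 TPM. The part of these markers in the member levels was not tested.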
